A study of Mus musculus with 6 samples.

Results

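The genes described here carry interleukin-6 (IL-6) family signals: the cytokine genes Il6 and Osm, the receptor chains Il6ra, Il6st, Lifr and Osmr, the kinase Jak2, the transcription factor Stat3 and the feedback inhibitors Socs1 and Socs3. They were chosen by symbol, with earlier results of these data known, and all 10 were found among the 52459 rows of the count table. RNA came from mouse liver tumours of the genotype MYC-LAP-tTA, in which a liver promoter drives a tetracycline-controlled transactivator that keeps a MYC transgene on. The MYC-On group (3 libraries) had MYC active, and the MYC-Off group (3 libraries) was taken on day 4 after MYC inactivation. Both groups carried the same transgenes. The labels used here do not name the agent that switched MYC off, give the animals' age, or state if each sample is a different mouse. The spread behind each p-value is thus that of the libraries at hand and could be technical.

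IL-6 binds its own receptor chain, IL-6 receptor alpha, and the pair then engages gp130, the shared signalling chain encoded by Il6st. Oncostatin M (Osm) and leukaemia inhibitory factor signal through gp130 joined to the chains encoded by Osmr or Lifr. Bound receptors activate JAK kinases, which phosphorylate STAT3, and STAT3 switches on target genes that include Socs3, whose product blocks gp130 and its kinases in return. In hepatocytes this route is the main inducer of acute-phase plasma proteins.

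The 250 bases before the annotated start were read from RefSeq windows on GRCm38.p6, which were given for 9 of the 10 genes (not for Osm, and with 2 starts for Lifr). Letters of 4 motifs were searched on both strands: the STAT palindrome TTCNNNGAA, the E-box CACGTG that MYC and MAX bind, the AP-1 motif TGANTCA and an interferon response element, GAAANNGAAA. Of 32851 windows of this length in the table, 7.02% held the first, 6.02% the second, 6.75% the third and 2.98% the last. Among the tested genes, matches lay before Socs3 (a STAT palindrome), Il6ra (an E-box) and Socs1 (2 overlapping interferon elements), and these stretches are shown. Il6, which was not tested, held an AP-1 motif 249 to 243 bases before its start. No motif matched before Il6st, Lifr, Osmr, Jak2 or Stat3. With such shares over all windows, a single match does not tell groups of genes apart. Capitals mark the motif letters. Socs3, 154 to 146 bases before the start, chr11:117969472-117969560, minus strand.
Socs3: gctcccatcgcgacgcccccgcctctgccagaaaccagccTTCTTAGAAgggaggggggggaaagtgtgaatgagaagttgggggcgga
Socs1, 83 to 68 bases before the start, chr16:10785564-10785659, minus strand.
Socs1: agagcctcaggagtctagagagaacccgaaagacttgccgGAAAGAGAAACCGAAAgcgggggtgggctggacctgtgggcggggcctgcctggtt
Il6ra, 24 to 19 bases before the start, chr3:89913197-89913260, minus strand.
Il6ra: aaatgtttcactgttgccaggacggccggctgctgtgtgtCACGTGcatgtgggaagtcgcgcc
The RefSeq start of Socs3 lies inside the GENCODE gene, whose outermost start is further upstream, so the Socs3 stretch lies within the GENCODE gene but outside its exons. A match is a description of the letters in the window, not evidence of binding.

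The libraries held 16292718 to 19265623 reads assigned to genes. Values are CPM (reads relative to library size, after TMM scaling for library composition), and 1 read stood for 0.0409 to 0.0768 CPM. Myc fell from 884 ± 122 to 34.6 ± 35.1 CPM (SD, n = 3), with 74.8 CPM in MYC-Off replicate 1 against 10.2 and 18.7 CPM in replicates 2 and 3 (log2 fold change -4.67, adjusted p = 0.0035, and -6.08 without replicate 1). Whether reads of the transgene are counted in this row was not tested. Hepatocyte markers were present in every library, with the summed level of 7 markers at 3952 to 8370 CPM in MYC-On and 110430 to 283715 CPM in MYC-Off (all 7 rose, Ahsg by 5.91). In RNA of whole tumour tissue, fewer cells of a type and less RNA per cell cannot be told apart.

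The receptor chains, the kinase, STAT3 and Socs3 all rose after MYC inactivation, and no gene of the set fell. Of the 10 genes, 8 passed the filter on low counts, and 7 of these 8 were higher in MYC-Off at an adjusted p under 0.05 in edgeR's quasi-likelihood test. Over all 14130 genes tested, 29.9% were higher by the same rule, 22.8% were lower and 52.7% were called in either direction. The median log2 fold change (MYC-Off minus MYC-On) of the 8 tested genes was 1.84, against 0.18 for all tested genes. In 7 of the 8 tested genes the lowest MYC-Off library stood above the highest MYC-On library, as it did for 33.2% of all tested genes.

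**Figure D1:**
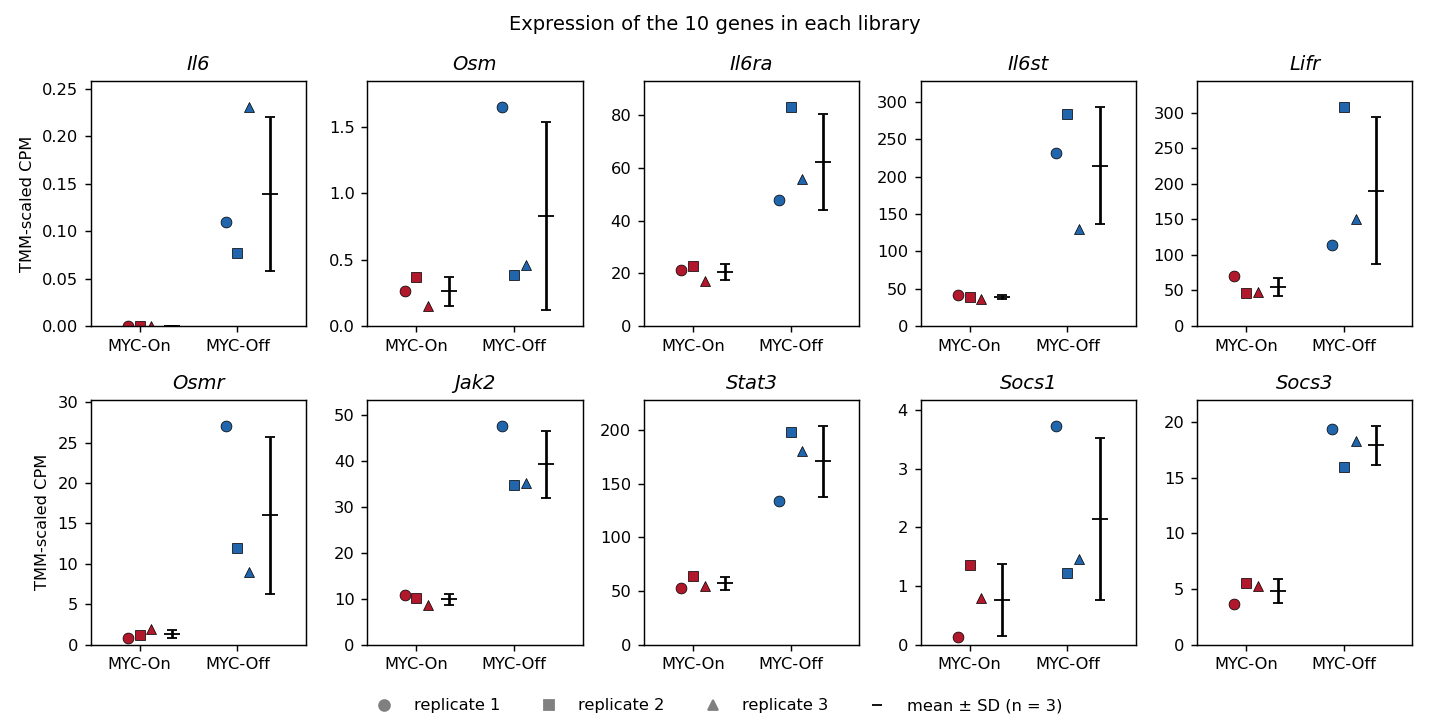
Level of each of the 10 genes in each library, as TMM-scaled CPM on a linear axis from 0 (points are libraries, marked by replicate number, and bars are mean ± SD, n = 3). Of the 8 tested genes, the groups overlap only for Socs1, where MYC-Off replicate 2 (1.22 CPM) lies below MYC-On replicate 2 (1.35 CPM). Over all tested genes, 33.2% were higher in MYC-Off without overlap. Il6 and Osm, not tested, rest on few reads. Osm in MYC-Off replicate 2 (5 reads, 0.383 CPM) lies beside MYC-On replicate 2 (9 reads, 0.368 CPM), so the scaling alone sets their order.

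The cytokine genes themselves were barely detected. Il6 (chromosome 5, 30013114 to 30019981) had 0 reads in all 3 MYC-On libraries and 2, 1 and 3 reads in MYC-Off replicates 1, 2 and 3. Against a floor of 3 reads over the MYC-On group, a limit of 0.0447 CPM, the 6 MYC-Off reads of Il6 stood 3.03-fold higher. This is not a lower bound, since the counting error of those 6 reads is left out. Il6 was too low for the main test, and without the filter its adjusted p was 0.0775 in edgeR and 0.314 in DESeq2. At 0.0765 to 0.230 CPM in MYC-Off, the reads were too few to show how the libraries differ. Osm, a cytokine made mainly by leukocytes (chromosome 11, 4236420 to 4241026), had 6, 9 and 3 reads in MYC-On and 30, 5 and 6 reads in MYC-Off. These are 0.267, 0.368 and 0.148 CPM against 1.65, 0.383 and 0.461 CPM, so that only MYC-Off replicate 1 stood well apart. The scaled ratio of reads was 3.45 with an exact 95% counting interval of 1.94 to 6.39, which leaves out the spread between libraries. Osm did not pass without the filter either (adjusted p = 0.236 in edgeR, 0.258 in DESeq2).

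The shared chain Il6st (gp130; chromosome 13, 112464070 to 112510086, plus strand) stood at 41.9, 39.3 and 35.6 CPM in MYC-On and at 231, 283 and 130 CPM in MYC-Off. All 3 MYC-Off libraries were clearly above MYC-On, with replicate 3 the lowest of them. Its mean rose from 38.9 ± 3.14 to 215 ± 78.0 CPM, which is 2.46 on the log2 scale (SE 0.33, adjusted p = 0.00154). Il6ra, the chain that binds IL-6 itself (chromosome 3, 89864059 to 89913196, minus strand), stood at 21.2, 22.9 and 17.2 CPM in MYC-On and at 48.0, 83.0 and 55.8 CPM in MYC-Off. The groups did not overlap, and Il6ra rose by 1.61 (SE 0.28, adjusted p = 0.00342). Exons of the antisense gene Gm42809 overlap those of Il6ra, and without a stated strand setting their reads cannot be told apart where they overlap.

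Osmr (chromosome 15, 6813577 to 6874969, minus strand) had the lowest level per kilobase of the receptor chains in MYC-On and the largest log2 fold change of the 8 tested genes. It stood at 0.846, 1.23 and 1.87 CPM in MYC-On and at 27.1, 11.9 and 8.99 CPM in MYC-Off. The lowest MYC-Off library was several times the highest MYC-On library, and replicate 1 exceeded the other MYC-Off libraries by more than they differed from each other. Mean Osmr was 1.32 ± 0.52 CPM in MYC-On and 16 ± 9.71 CPM in MYC-Off, and the gene rose by 3.6 on the log2 scale (SE 0.57, adjusted p = 0.00262). Without MYC-Off replicate 1 the log2 fold change was 2.84 (adjusted p = 0.00232).

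Lifr, the receptor chain for leukaemia inhibitory factor (chromosome 15, 7090614 to 7197489, plus strand), had the least certain call of the receptors. It stood at 70.3, 46.6 and 48.0 CPM in MYC-On and at 114, 308 and 150 CPM in MYC-Off. The groups did not overlap, and MYC-Off replicate 2 held more CPM than the other MYC-Off libraries together. Lifr rose by 1.79 on the log2 scale (SE 0.41, adjusted p = 0.0101). It missed the threshold against a 2-fold change (adjusted p = 0.0535) and without MYC-On replicate 2 (adjusted p = 0.0568) or 3 (adjusted p = 0.0531), and stood at 1.18 without MYC-Off replicate 2 (adjusted p = 0.0143).

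Downstream of the receptors, Jak2, a kinase bound to gp130 and to many other cytokine receptors (chromosome 19, 29251828 to 29313080, plus strand), had the smallest adjusted p of the set. It stood at 10.9, 10.1 and 8.63 CPM in MYC-On and at 47.7, 34.9 and 35.3 CPM in MYC-Off. The libraries of each group lay close together, and Jak2 rose by 2.00 (SE 0.24, adjusted p = 0.00118). Stat3 (chromosome 11, 100885098 to 100939540, minus strand) stood at 52.8, 63.8 and 54.5 CPM in MYC-On and at 134, 199 and 180 CPM in MYC-Off. It rose by 1.58 (SE 0.24, adjusted p = 0.00218), with MYC-Off replicate 1 the lowest of its group. Exons of Stat5a on the other strand overlap those of Stat3. RNA levels do not measure the phosphorylated, active form of STAT3.

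The feedback inhibitors differed in how clearly they changed. Socs3 (chromosome 11, 117966079 to 117970047, minus strand) stood at 3.61, 5.57 and 5.28 CPM in MYC-On and at 19.5, 16 and 18.4 CPM in MYC-Off. The MYC-Off libraries lay close together for Socs3, at 17.9 ± 1.77 CPM. Socs3 rose by 1.90 (SE 0.30, adjusted p = 0.00261). Socs1, which inhibits JAK kinases and restrains interferon signals (chromosome 16, 10782240 to 10785536, minus strand), stood at 0.134, 1.35 and 0.789 CPM in MYC-On and at 3.74, 1.22 and 1.46 CPM in MYC-Off. The groups overlapped, and Socs1 did not pass (1.5, SE 0.83, adjusted p = 0.166). Without MYC-Off replicate 1 its log2 fold change was 0.67 (adjusted p = 0.517), so a change of Socs1 was not detectable beyond the spread between libraries.

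**Figure D2:**
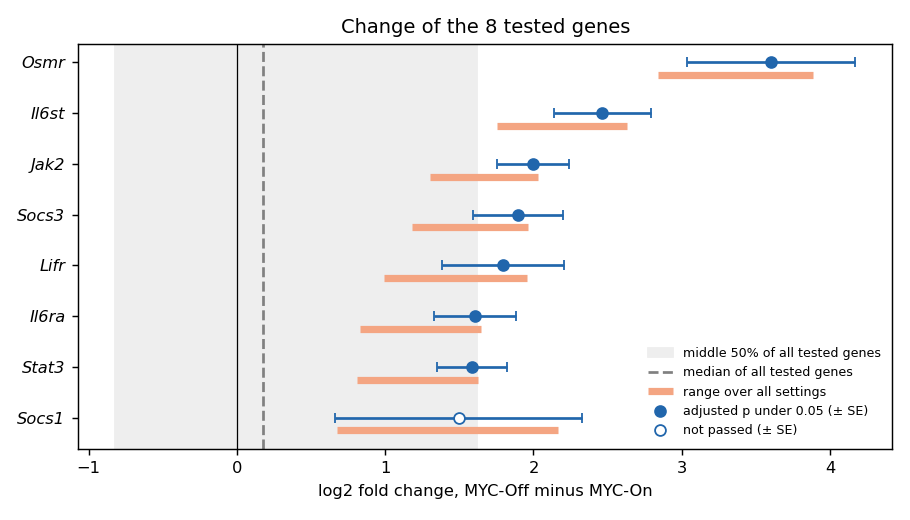
Log2 fold change, MYC-Off minus MYC-On, of the 8 tested genes (points, ± SE), with the range over all settings tried as an orange bar, the median of all tested genes as a dashed line and their middle 50% as a grey band. Osmr stands highest at 3.6 and Socs1, the open point, at 1.5 with the widest error.

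Levels of different genes were compared per kilobase of annotated exon, in CPM per kb. In MYC-On the order was Stat3 (5.99 ± 0.62), Lifr (5.10 ± 1.23), Il6st (3.51 ± 0.28), Il6ra (2.36 ± 0.34), Jak2 (1.96 ± 0.23), Socs3 (1.67 ± 0.37), Socs1 (0.261 ± 0.209), Osm (0.115 ± 0.049), Osmr (0.109 ± 0.043) and Il6 at 0. Stat3 and Lifr overlapped each other, as did Il6ra with Jak2, Jak2 with Socs3, Socs1 with Osm, and Osm with Osmr. In MYC-Off, Il6st (19.4 ± 7.03), Stat3 (18 ± 3.47) and Lifr (17.7 ± 9.56) led with overlapping ranges. Jak2 (7.81 ± 1.45), Il6ra (7.21 ± 2.13) and Socs3 (6.20 ± 0.61) followed, again with overlapping neighbours. Osmr (1.32 ± 0.80) and Socs1 (0.736 ± 0.477) lay below them without reaching Socs3, and Osm (0.366 ± 0.312) and Il6 (0.0572 ± 0.0333) came last. Osmr overlapped Socs1 in MYC-Off, as Socs1 did Osm, so their order there was not beyond the spread. The annotated exon length of Osmr of 12113 bases, against 5491 for its longest transcript, makes its level per kb a low estimate. The same holds to a lesser degree for Stat3 (9527 against 6042), Il6st (11099 against 8678) and Lifr (10776 against 9655). The order of Il6st, Stat3 and Lifr in MYC-Off can thus depend on the length used.

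Ratios within a library do not depend on how libraries are scaled, so 3 were taken as the log2 ratio of reads per kb. The Il6ra to Il6st ratio was -0.62, -0.42 and -0.69 in MYC-On and -1.91, -1.41 and -0.86 in MYC-Off. It was lower in all 3 MYC-Off libraries than in any MYC-On library, with a mean difference of -0.82. The exact two-sided permutation test gave p = 0.1 (adjusted p = 0.3 over the 3 ratios), the smallest p that 3 against 3 libraries allow. The Osmr to Lifr ratio was -6.54, -5.41 and -4.85 in MYC-On and -2.24, -4.86 and -4.23 in MYC-Off. Its mean difference was 1.83, but MYC-Off replicate 2 lay beside MYC-On replicate 3 (exact permutation p = 0.2, adjusted p = 0.3), and without MYC-Off replicate 1 the difference was 1.06. The Socs3 to Stat3 ratio overlapped between the groups and differed by 0.35 (exact permutation p = 0.4, adjusted p = 0.4). Without MYC-Off replicate 1 that difference was 0.12.

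**Figure D3:**
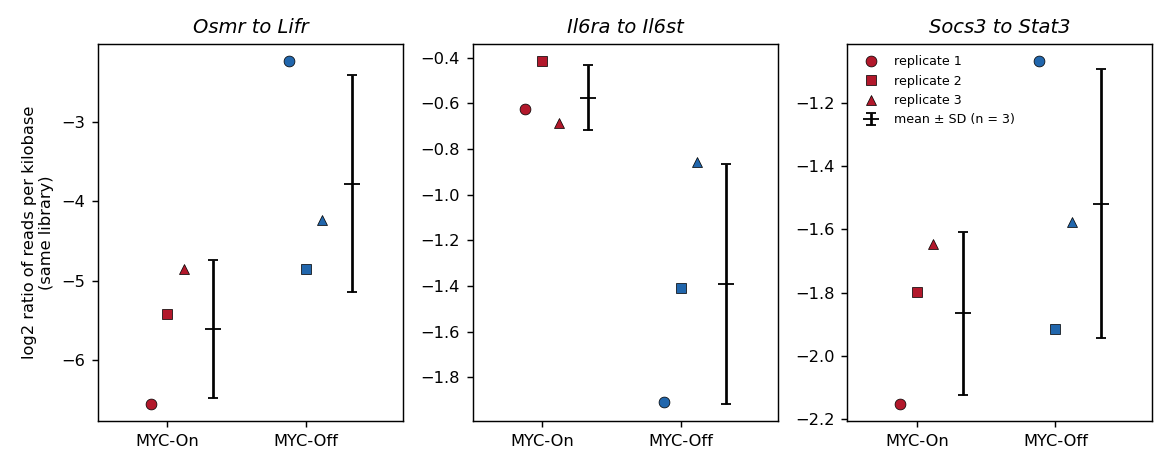
Log2 ratio of reads per kilobase of 2 genes in the same library, for Osmr to Lifr, Il6ra to Il6st and Socs3 to Stat3 (points are libraries, bars are mean ± SD, n = 3, and each panel has its own axis). The groups separate for Il6ra to Il6st, with MYC-On between -0.69 and -0.42 and MYC-Off between -1.91 and -0.86.

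Other cytokines and receptor chains of the family were mostly scarce, and Il11ra1 had the largest log2 fold change among those that rose. Of 13 listed genes 7 were tested, with a median log2 fold change of 2.35. Of these 3 rose and 0 fell, beside 29.9% and 22.8% of all tested genes. Il11ra1, the receptor chain for interleukin-11, stood at 1.11, 0.819 and 1.58 CPM in MYC-On and at 27.7, 23.6 and 13.6 CPM in MYC-Off (4.21, SE 0.44, adjusted p = 0.000896). Il27ra, which pairs with gp130 for interleukin-27, changed by 3.52 (adjusted p = 0.014) and Ebi3, a subunit of interleukin-27, by 2.35 (adjusted p = 0.026). Both were highest in MYC-Off replicate 1, with 12 CPM of Il27ra against 2.45 and 1.46 CPM in replicates 2 and 3. Il27ra stood at 1.94 without that library and missed the threshold without any single MYC-On replicate (adjusted p = 0.0552, 0.0591 and 0.0642 without replicates 1, 2 and 3). Ebi3 missed it without MYC-Off replicate 1 (1.23, adjusted p = 0.0774) and without MYC-On replicates 1, 2 and 3 in turn (adjusted p = 0.098, 0.0755 and 0.105), and with library size only (1.79, adjusted p = 0.0967). In the list, 1 gene rose without MYC-On replicate 1 and 1 without MYC-On replicate 2. Il11ra1 has a near-identical copy, Il11ra2, listed with 0 reads, and its exons overlap those of Ccl27a on the other strand, so its value is uncertain.

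Most other genes of signal relay rose as well. Of 13 tested, 8 rose and 1 fell, beside 29.9% and 22.8% of all tested genes, and the list median was 0.98. Tyk2, a kinase of the JAK family, rose by 1.43 (adjusted p = 0.00336) and the transcription factor gene Stat2 by 1.7 (adjusted p = 0.00358). Jak1, the kinase most used by gp130 and the one with the most reads in this list, rose from 107 ± 13.9 to 210 ± 36.9 CPM (0.98, adjusted p = 0.014). Jak1 missed the threshold without MYC-On replicate 1 (adjusted p = 0.0872) or 3 (adjusted p = 0.0784) and with library size only (0.28, adjusted p = 0.5), and Tyk2 with library size only (0.71, adjusted p = 0.0898). The gene that fell was Ptpn11, the phosphatase SHP2, which docks on gp130 at the site that Socs3 binds (149 ± 43.3 to 85.1 ± 12.3 CPM, -0.81, adjusted p = 0.0399). It was chosen for mention after its values were seen, being the single decrease. No gene of the list fell without MYC-On replicate 1, MYC-On replicate 2 or MYC-Off replicate 3, and 5 rose without MYC-On replicate 1.

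The other negative regulators split, as did all tested genes (29.9% higher and 22.8% lower). Of 17 tested genes 3 rose and 6 fell, with a median of -0.33. Those that rose were Socs2, an inhibitor of growth hormone signals (2.69 ± 0.70 to 17.8 ± 7.79 CPM, 2.73, adjusted p = 0.00259), Ptpn6, the phosphatase SHP1 of blood cells (12.5 ± 1.93 to 63.8 ± 35.2 CPM, 2.35, adjusted p = 0.00348), and Socs5 (1.98, adjusted p = 0.00388). Ptpn6 stood at 1.65 without MYC-Off replicate 1. The 6 that fell, named after their values were seen, were Ptpn2, Rnf7, Socs7, Cul5, Socs6 and Pias2, from -1.04 for the phosphatase gene Ptpn2 to -0.67 for Pias2. Eloc, the one with the most reads and a subunit of the ubiquitin ligase that SOCS proteins recruit, stood at 86.1 ± 18.9 and 60.2 ± 5.51 CPM and did not pass (-0.52, adjusted p = 0.0973), but did with library size only (-1.23, adjusted p = 0.00934). Without MYC-On replicate 1, 3 genes fell. With library size only, which shifts all genes down, 11 fell, so the number that fell depends on the scaling.

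Genes that shed receptor chains into soluble form had a median log2 fold change of 0.11. Of 4 tested genes 1 rose, where 29.9% of all tested genes did, so the count is not particular to the list. The gene was Rhbdf2, a partner of the sheddase ADAM17 (20.6 ± 5.03 to 45.8 ± 17.5 CPM, 1.16, adjusted p = 0.0237). Rhbdf2 missed the threshold without any single MYC-On replicate (adjusted p = 0.0998, 0.066 and 0.0636), without MYC-Off replicate 3 (adjusted p = 0.0742) and with library size only (0.39, adjusted p = 0.351). Adam10, with the most reads of the list, did not pass (-0.25, adjusted p = 0.487), but was lower at -0.71 (adjusted p = 0.0245) without MYC-Off replicate 1.

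Regulators known as STAT3 targets mostly rose. Of 15 tested genes 9 rose and 1 fell, beside 29.9% and 22.8% of all tested genes, and the list median was 1.23. Il1rn, the interleukin-1 receptor antagonist, stood at 3.65, 2.50 and 6.46 CPM in MYC-On and at 141, 68.0 and 91.0 CPM in MYC-Off (4.57, SE 0.47, adjusted p = 0.000896). Bcl2l1, which protects cells from apoptosis, rose from 20.8 ± 5.06 to 76.7 ± 8.07 CPM (1.88, adjusted p = 0.00149). Birc5, an inhibitor of apoptosis that also acts in mitosis, went the other way, from 169 ± 14.4 to 8.15 ± 4.75 CPM (-4.37, adjusted p = 0.000881), and stood at -5.11 without MYC-Off replicate 1. Mcl1, with the most reads, did not pass (0.42, adjusted p = 0.283), and its sign turned with library size only and without MYC-Off replicate 1. The number that rose was 5 without any one MYC-On replicate, without MYC-Off replicate 3 and with library size only, and 2 genes fell without MYC-Off replicate 3.

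All 21 acute-phase genes tested rose (median 6.45), beside 29.9% of all tested genes, and this list had the largest median of the 6. The number that rose was 20 at an adjusted p under 0.01, without the filter, with limma-voom and with the replicate block. It was also 20 without any one MYC-On replicate, and DESeq2 tested only 20. Hamp, chosen after its values were seen, overlapped between the groups, with 20.4 CPM in MYC-Off replicate 3 and 22.6 CPM in MYC-On replicate 3. The iron-binding protein Lcn2 rose from 2.07 ± 1.24 to 1266 ± 394 CPM (9.26), Steap4 from 2.81 ± 1.07 to 245 ± 111 CPM (6.45) and Apcs, serum amyloid P, from 16.2 ± 8.30 to 1084 ± 351 CPM (6.06), with adjusted p = 0.000805, 0.000805 and 0.00085. Fgb, a fibrinogen chain and the one with the most reads, rose by 3.64 (adjusted p = 0.00166). The summed level of the list was 2175 to 3485 CPM in MYC-On and 33995, 71801 and 83190 CPM in MYC-Off replicates 1, 2 and 3, whereas Socs3 was nearly level over those 3 libraries. Hepatocyte markers moved the same way, since their sum was lowest in MYC-Off replicate 1 and highest in replicate 3, and Fgb is also on that list. The part of hepatocyte content in the acute-phase result was not tested.

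**Figure D4:**
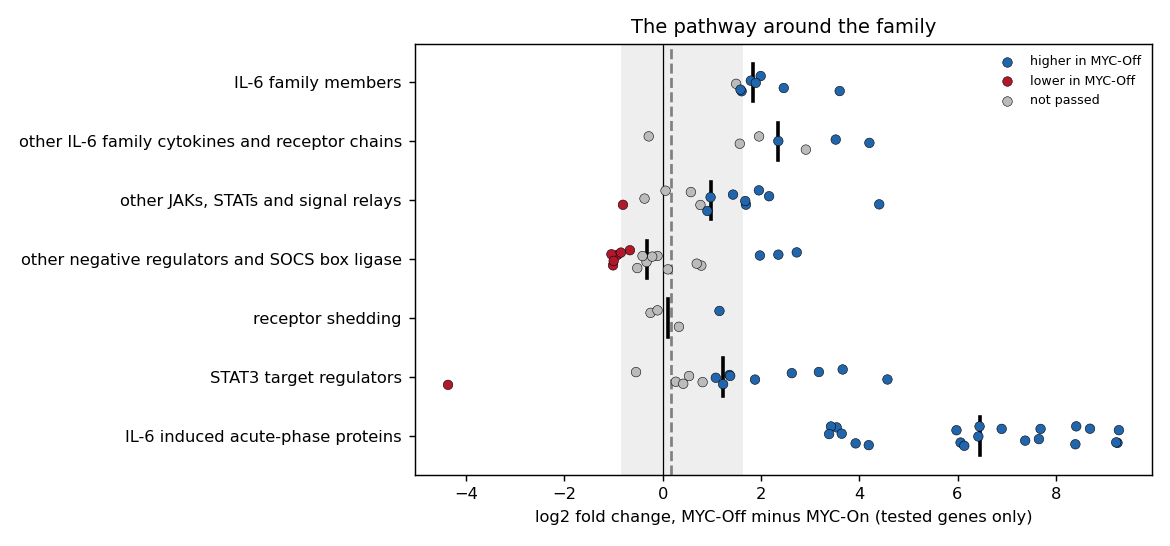
Log2 fold change, MYC-Off minus MYC-On, of each tested gene in the IL-6 family set and the 6 surrounding lists (blue passed as higher, red passed as lower, grey did not pass, black bars are list medians). The dashed line and grey band are the median and middle 50% of all tested genes, and the acute-phase list lies wholly above the band.

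Within the MYC-Off group the genes fell into different patterns over the libraries. Relative to the MYC-On mean on the log2 scale, Osm (2.66, 0.55 and 0.82 in replicates 1, 2 and 3), Osmr (4.36, 3.18 and 2.77) and Socs1 (2.30, 0.69 and 0.95) were highest in replicate 1. Il6ra (1.23, 2.02 and 1.45), Lifr (1.05, 2.49 and 1.45) and Stat3 (1.24, 1.80 and 1.66) were highest in replicate 2 and lowest in replicate 1. Of the 9 genes with reads in MYC-On, 5 were highest in replicate 1, 4 in replicate 2 and none in replicate 3.

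Markers of other cell types also differed between these libraries. The marker counts below stand beside 29.9% higher and 22.8% lower among all tested genes. Of 12 macrophage and Kupffer cell markers 10 rose. Their summed level was 382 to 691 CPM in MYC-On and 5195, 2025 and 1186 CPM in MYC-Off replicates 1, 2 and 3. Cd14 rose from 0.643 ± 0.042 to 41.5 ± 24.7 CPM but was highest in replicate 3 (41.1, 17.0 and 66.4 CPM). Clec4f, Timd4, Marco and Vsig4 of this list, named after their values were seen, overlapped between the groups. In MYC-Off replicate 3 they stood at 0, 12.9, 0.077 and 0.461 CPM. Endothelial markers (6 of 7 tested rose) summed to 51.9 to 60.6 CPM in MYC-On and to 620, 343 and 317 CPM in MYC-Off (Cdh5 2.93). Stellate cell and fibroblast markers (7 of 8 rose) summed to 143 to 151 CPM and to 2205, 1191 and 1002 CPM (Col1a2 2.80). T cell markers (4 of 5 tested rose) summed to 3.30 to 4.88 CPM in MYC-On and to 178, 20.6 and 4.30 CPM in MYC-Off, and B cell markers (1 of 1 tested rose) to 0.395 to 0.891 CPM and to 41.6, 3.67 and 1.54 CPM. Cd3e stood at 25.6, 4.67 and 0.614 CPM in the MYC-Off libraries, and neither Cd3e nor the B cell gene Cd79b passed without any one MYC-On replicate (adjusted p = 0.0663, 0.0703 and 0.0777 for Cd3e, and 0.0522, 0.0733 and 0.0708 for Cd79b). These 5 sums and that of the cholangiocyte markers were highest in MYC-Off replicate 1. So were Osm, Osmr, Jak2, Socs1 and Socs3, although Socs3 was nearly level (19.5, 16 and 18.4 CPM in replicates 1, 2 and 3). In the macrophage list, Clec4f, Cd163 and Marco were highest in replicate 2, named after their values were seen. The other genes of that list, except Cd14, were highest in replicate 1. No marker of these lists was at 0 in all MYC-On libraries. The part of these cells in the results for Osm, Osmr, Jak2, Socs1 and Socs3 was not tested.

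Neutrophil markers (9 of 9 tested rose) summed to 2.46 to 3.70 CPM in MYC-On and to 192, 168 and 275 CPM in MYC-Off, with S100a8 at 0.430 ± 0.269 and 34.9 ± 4.63 CPM. Of 5 cholangiocyte markers 2 rose and 1 fell, and their sum overlapped between the groups, at 44.1 to 104 CPM in MYC-On and 253, 86.1 and 92.7 CPM in MYC-Off. Sox9 rose by 6.05 (5.42 without MYC-On replicate 2), while Krt7, named after its values were seen, fell from 32 ± 18.9 to 5.65 ± 5.35 CPM (-2.49, adjusted p = 0.0318) with overlapping groups. Of 9 immediate-early genes, which respond within minutes to cytokines and to the handling of tissue, 4 rose, among them Egr1 (9.52 ± 1.28 to 79.0 ± 32.8 CPM). Their sum was 114 to 198 CPM in MYC-On and 409, 286 and 519 CPM in MYC-Off. Socs3 is likewise quickly induced, and the part of tissue handling in its increase was not tested.

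**Figure D5:**
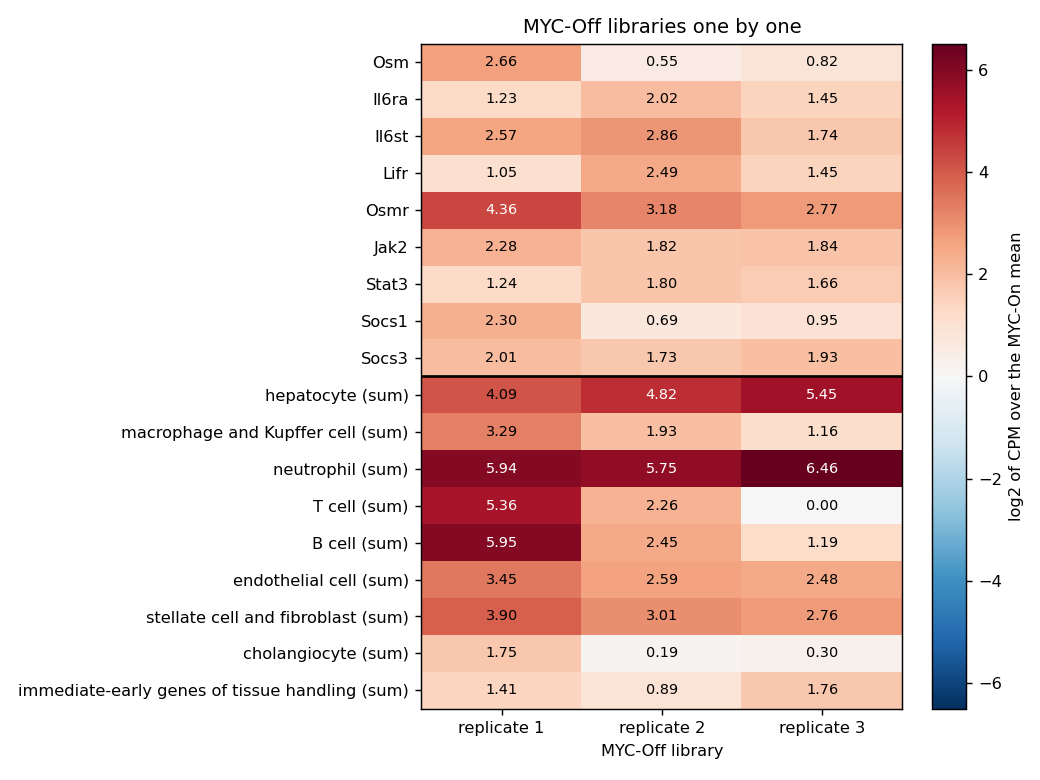
Each MYC-Off library against the MYC-On mean, as log2 of CPM, for the 9 genes with reads in MYC-On (above the line) and for the summed CPM of each marker list (below it). Osmr, Osm, Jak2, Socs1 and Socs3 are highest in replicate 1, as are the macrophage, T cell, B cell, endothelial, stellate cell and cholangiocyte sums. Socs3 is nearly level over the libraries, and Il6ra, Lifr and Stat3 are lowest in replicate 1.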

How the data were processed

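RNA of 6 mouse liver tumour samples was sequenced. The authors deposited 1 table of whole-number read counts per gene symbol, which were not normalized. Trimmomatic, STAR, Picard, featureCounts, DESeq2 and mm10 are named in the submitters' processing notes, while their versions, the annotation and any use of strand are not given in the sources examined. Sample titles gave the group and the replicate number.

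All genes were fitted together with the robust quasi-likelihood test of edgeR 4.0.16 (R 4.3.3), MYC-Off against MYC-On. Low genes were removed by filterByExpr at its minimum count of 10 and total of 15, libraries were scaled by TMM, and p-values were adjusted by Benjamini-Hochberg over 14130 genes, with 0.05 as threshold. The SE is the log2 fold change divided by the root of F. Coordinates and exon lengths come from GENCODE M21 (mm10). Libraries of a group differed by more than sampling noise (chi-square over degrees of freedom 32.1 or more). Simulated counts for this comparison (13926 genes, 50 changed per fold size) gave back 0% of the genes changed 2-fold, 56% at 4-fold, 82% at 8-fold and 96% at 16-fold, beside 12 false calls. Far fewer genes were changed in that simulation than the 52.7% called in the data, so its shares do not give the power of the main fit. Ratios were tested in SciPy 1.17.1.

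The members and lists were chosen with earlier results of these data known. Named are all members, the 3 genes with the smallest adjusted p and the most abundant gene in each pathway list (all that passed where 5 or fewer did), the gene with the smallest adjusted p in each marker list, and Myc. A gene that this rule selects is not reported here. The hepatocyte symbol Tf is not a row of the table.

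The alternatives tried were other size factors (those of DESeq2, or library size alone, also leaving out the 20 most abundant genes), other filters (none, or 1 CPM in 3 libraries), other tools (DESeq2 1.42.0, limma-voom in limma 3.58.1, edgeR without robust fitting), the replicate number as a block, a stricter threshold (0.01), glmTreat testing beyond 2-fold, coding length for the ratios, and the omission of each library in turn.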

Additional observations from a re-analysis of the deposited data

How the results depend on the processing

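Every member that was tested had a positive log2 fold change under every alternative run, and 6 or 7 passed. The size of the change depended on the scaling. The median of the tested members was 1.84 in the main fit and 1.09 with library size only. TMM factors were 1.25 to 1.36 in MYC-On and 0.68 to 0.99 in MYC-Off. The lowest value over all settings was 0.67 for Socs1, 0.81 for Stat3, 0.83 for Il6ra and 0.99 for Lifr, and 2.84 for Osmr. Socs1 was not tested under the filter of 1 CPM in 3 libraries. Library size only moved the median of all genes by -0.74, and leaving out the 20 most abundant genes as well by -0.39, so that 32.3% and 43.0% of called genes were higher against 56.7%. By setting, all-gene counts of higher and lower calls were 4222 and 3221 in the main fit, 2527 and 5300 with library size only, 2368 and 1889 at 0.01, and 2621 and 1428 with glmTreat. Mcl1 turned to -0.24 with library size only and ranged from -0.030 to 0.50 when 1 library was left out.

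Calls in the surrounding lists moved more. With library size only, 4 relay genes rose and 3 fell, 11 negative regulators fell, 0 shedding genes rose, and 5 STAT3 targets rose and 2 fell. Without the 20 most abundant genes, 2 relay genes fell, 0 shedding genes rose, and 5 STAT3 targets rose and 2 fell. At 0.01, 1 other cytokine or receptor gene and 5 STAT3 targets rose, 0 shedding genes rose, 0 relay genes and 1 negative regulator fell. With glmTreat, 5 relay genes, 5 STAT3 targets and 0 shedding genes rose, and 0 relay genes and 0 negative regulators fell. With DESeq2, and with its size factors, 2 STAT3 targets fell. Leaving out 1 library gave 1 to 4 other cytokine or receptor genes that rose, 5 to 9 relay genes that rose and 0 to 1 that fell, 3 to 6 negative regulators that fell, 0 to 1 shedding genes in either direction, and 5 to 8 STAT3 targets that rose and 1 to 2 that fell. The cause of these moves was not tested.

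Same-numbered libraries of the groups did not deviate together (correlations -0.26, -0.17 and 0.04), and 0 of 3 MYC-On libraries correlated best with their own number. With the replicate block, 7 members were still higher, 5 STAT3 targets rose, 0 relay genes fell, and Ebi3 stood at 2.05 (adjusted p = 0.0771). All-gene calls were 3152 higher and 2611 lower. Depth limits Il6 and Osm, which had at most 30 reads in any library.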
